A study of Astyanax mexicanus with 6 samples.

Results

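The 7 genes described here encode subunits of the transcription and repair factor TFIIH: *ercc2*, *ercc3*, *gtf2h1* and *gtf2h5* of its core, and *cdk7*, *ccnh* and *mnat1*, which together form the CDK-activating kinase (CAK). They were chosen by gene name, ignoring case, from the 27420 genes listed for the series, and each name matched 1 gene. The series holds RNA sequencing of cultured embryonic fibroblast lines of the Mexican tetra *Astyanax mexicanus*, with 3 libraries of PEF, the line from Pachón cavefish, and 3 libraries of SEF, the line from surface fish. Both lines are labelled as wild type, were grown in the same way without CO2, and carry no treatment in the labels; the methods name no UV exposure of the sequenced cells. Each line was started from pooled, dissociated embryos, from which individual clones were isolated and passaged, so 1 line stands for each population. A legend of the study describes the samples of a heat map that includes both lines as independent biological replicates, without saying what made them independent, such as separate cultures. The p-values measure the spread between libraries of 1 line from each population.

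TFIIH opens the DNA helix at promoters, so that RNA polymerase II can start transcription, and around bulky lesions such as UV photoproducts during nucleotide excision repair. The opening is done by the core, whose ATPase and helicase subunits are the products of *ercc3* (XPB) and *ercc2* (XPD). The CAK phosphorylates the tail of RNA polymerase II as part of TFIIH and, as a free complex, activates the kinases of the cell cycle. In humans, mutations in *ERCC2* and *ERCC3* cause the DNA repair disorders xeroderma pigmentosum and trichothiodystrophy, and mutations in *GTF2H5* cause trichothiodystrophy. The study asks how cavefish cells handle UV damage. The comparison here asks whether the message levels of these subunits, and the balance between them, differ between PEF and SEF in unexposed cells.

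Of the 7 genes, the kinase and the cyclin of the CAK rose in PEF and 1 helicase of the core fell. *cdk7* rose 3.03-fold and *ccnh* 1.58-fold in PEF, *ercc2* fell to 0.758 of its SEF level, and the other 4 genes did not pass the threshold. The third CAK gene, *mnat1*, and the core genes *ercc3*, *gtf2h1* and *gtf2h5* had log2 fold changes of 0.46, -0.18, -0.24 and 0.15. All 7 genes passed the filter on low counts, with 126 to 1850 reads per gene and library. Over all 16670 tested genes, 63.5% were called in either direction, 30.4% higher and 33.1% lower in PEF, with edgeR's quasi-likelihood test at a Benjamini-Hochberg adjusted p under 0.05. The 3 called TFIIH genes make up 42.9% of the 7, below that background. Reads scaled to library size (CPM) did not overlap between the lines for 5 of the 7 genes (71.4%), near the 70.8% of all tested genes. The median log2 fold change, PEF over SEF, was 0.15 over the 7 genes and -0.02 over all tested genes. A log2 fold change above 1 in size was reached by 1 of the 7 genes and by 42% of all tested genes.

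The libraries held 36790663 to 42506026 reads on genes in PEF and 33381563 to 39156850 in SEF. The labelled cell type was checked with marker genes. The collagen genes *col1a1a* and *col1a2* averaged 3702 and 4264 TPM in PEF, and 2010 and 4670 TPM in SEF. Of the 6 fibroblast markers, 3 were called higher in PEF, 1 lower and 2 not. Those higher were *col1a1a*, *col1a1b* and *pdgfra*, at log2 fold changes of 0.91, 1.19 and 1.12 (edgeR adjusted p = 0.0154, 0.0187 and 0.00213). Only 1 was called higher without SEF replicate 2 or without SEF replicate 3. The mesenchymal filament gene *vim* averaged 1.23 TPM in PEF and 3.32 TPM in SEF, and was called lower at -1.30 (edgeR adjusted p = 0.00380). These are RNA levels of 1 listed gene. The study stained both lines for the vimentin protein and reports it as stably expressed in each. Of the epithelial markers, *epcam* had at most 3 reads in a library, while the keratin gene *krt4* averaged 778 TPM in PEF and 915 TPM in SEF. The claudin genes *cldn7a* and *cldn7b* were lower in PEF, at log2 fold changes of -3.80 and -3.41 on at most 45 and 36 reads per library (edgeR adjusted p = 8.07e-05 and 0.00294). Summed epithelial markers (5 genes), nearly all of it *krt4*, ran from 331 to 1485 TPM in PEF and from 700 to 1032 TPM in SEF. Summed muscle markers (4 genes, *myod1* at 0 reads) reached 30.3 to 44.5 TPM in PEF and 156 to 317 TPM in SEF. Nearly all of it was the actin gene *acta1b*. Endothelial markers (6 genes, *cdh5* at 0 reads) summed to 38.9 to 43.0 TPM in PEF and 98.8 to 141 TPM in SEF, nearly all of it *kdrl* and *fli1a*. Neural, blood and pigment markers, with *sox2*, *gata1a* and *sox10* at 0 reads, summed to at most 5.81, 0.38 and 0.19 TPM in a PEF library. In a SEF library the maxima were 30.5, 0.85 and 1.25 TPM. The tested neural genes went both ways. *snap25a* averaged 4.34 TPM in PEF and 2.32 TPM in SEF and was called higher, at 0.99 on the log2 scale. That call was lost without SEF replicate 2 and with limma. *gfap* and *snap25b* were called lower, at -4.09 and -2.53. Most of the neural maximum in SEF was *gfap*, at 22.0 TPM in SEF replicate 1. The part of these marker differences in the TFIIH values was not tested, and in bulk RNA fewer cells of a type and less RNA per cell cannot be told apart.

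The largest difference was that of the kinase itself. *cdk7* (ENSAMXG00000008454), the catalytic subunit of the CAK, was expressed at 42.8, 37.2 and 43.3 TPM in PEF replicates 1, 2 and 3, and at 15.6, 16.7 and 12.6 TPM in SEF replicates 1, 2 and 3. The level in TPM is the share of transcripts that belong to the gene, corrected for gene length and scaled to a fixed total. Every PEF library lay above every SEF library. The reads behind these levels numbered 1206 to 1419 in PEF and 372 to 512 in SEF. The log2 fold change, PEF over SEF, was 1.60 (SE, the standard error, 0.14, 95% interval 1.28 to 1.92, edgeR adjusted p = 6.44e-05). A change of this size or larger was found for 28.5% of all tested genes. Leaving out each library in turn kept it between 1.46 and 1.65.

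*ccnh* (ENSAMXG00000014644) encodes cyclin H, the partner that *cdk7* needs for activity. Its level was 31.9, 28.7 and 28.1 TPM in PEF replicates 1, 2 and 3, against 19.1, 21.0 and 18.6 TPM in SEF replicates 1, 2 and 3. The lines did not overlap, and the difference exceeded the spread within either line. Its log2 fold change was 0.66 (SE 0.09, 95% interval 0.45 to 0.87, edgeR adjusted p = 0.000598). In the RefSeq annotation of the assembly AstMex3_surface, *ccnh* overlaps *rasa1a*, a regulator of Ras signaling with 3257 to 10597 reads per library, which rose in PEF by 1.35 on the log2 scale (edgeR adjusted p = 3.39e-05). Whether the authors' counting used strand is not given in the sources used here, so a share of *rasa1a* reads in the *ccnh* count was not tested.

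*mnat1* (ENSAMXG00000029183) encodes MAT1, which holds the kinase and the cyclin together and ties the CAK to the core. It was expressed at 10.3, 9.67 and 9.96 TPM in PEF replicates 1, 2 and 3, and at 8.45, 7.26 and 5.92 TPM in SEF replicates 1, 2 and 3. All PEF libraries lay above all SEF libraries, and the SEF libraries spread more widely (coefficient of variation 3.36% in PEF and 17.6% in SEF). The log2 fold change was 0.46 (SE 0.19, 95% interval 0.01 to 0.92), and it did not pass the threshold in edgeR's quasi-likelihood test (adjusted p = 0.0688). Its counts were the lowest of the 7 genes, with 201 to 216 reads per PEF library and 126 to 169 per SEF library. Without SEF replicate 1 the gene was called, at 0.64 on the log2 scale (edgeR adjusted p = 0.0224), and it was also called on log2 TPM values (limma adjusted p = 0.0297 to 0.0383).

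**Figure D1:**
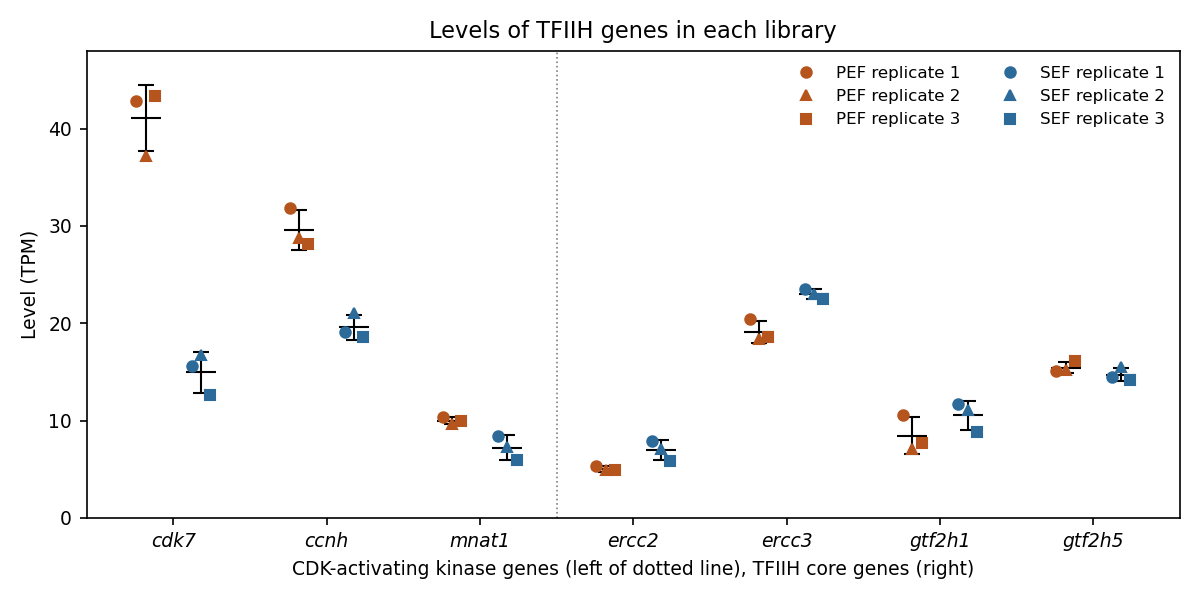
Level of each TFIIH gene in TPM (vertical axis, linear from 0) in the 3 PEF libraries (orange, left of each pair) and the 3 SEF libraries (blue, right), with bars for the mean and SD and a marker shape for each replicate. The CAK genes lie left of the dotted line, with *cdk7* at 37.2 to 43.3 TPM in PEF and 12.6 to 16.7 TPM in SEF. Each core gene to the right differs less than *cdk7*.

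The core helicase *ercc2* (ENSAMXG00000009052), which unwinds DNA during repair, had the lowest level of the 7 genes in both lines. It was expressed at 5.35, 4.87 and 4.88 TPM in PEF replicates 1, 2 and 3, against 7.91, 7.12 and 5.85 TPM in SEF replicates 1, 2 and 3. The lines did not overlap, with SEF replicate 3 closest to the PEF libraries. The log2 fold change was -0.40 (SE 0.14, 95% interval -0.72 to -0.08, edgeR adjusted p = 0.0369). The call was lost in 7 of 14 alternative analyses, among them leaving out any PEF library, SEF replicate 1 or SEF replicate 2 (edgeR adjusted p = 0.0672 to 0.107). The fold change stayed negative in all 14. In the RefSeq annotation *ercc2* overlaps the kinesin light chain gene *klc3*, which had only 1 to 11 reads per library.

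*ercc3* (ENSAMXG00000036947) encodes the translocase that opens the promoter. Its level was 20.5, 18.3 and 18.6 TPM in PEF replicates 1, 2 and 3, against 23.5, 23.0 and 22.5 TPM in SEF replicates 1, 2 and 3. The lines did not overlap, but the distance between them was small. On counts the log2 fold change was -0.18 (SE 0.08, 95% interval -0.37 to 0.02) and missed the threshold (edgeR adjusted p = 0.0951). *ercc3* was called as lower in 5 of the 14 alternatives, namely DESeq2 (adjusted p = 0.0333), edgeR with at least 10 reads in every library (adjusted p = 0.0327) and limma on log2 TPM in its 3 forms (adjusted p = 0.0332 to 0.0422).

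*gtf2h1* (ENSAMXG00000018708) encodes a scaffold subunit that contacts other repair and transcription factors. It was expressed at 10.6, 7.09 and 7.67 TPM in PEF replicates 1, 2 and 3, and at 11.7, 11.1 and 8.80 TPM in SEF replicates 1, 2 and 3. The lines overlapped through PEF replicate 1, and *gtf2h1* varied most within PEF, with a coefficient of variation of 22.1% in PEF and 14.5% in SEF. The log2 fold change was -0.24 (SE 0.16, 95% interval -0.62 to 0.14, edgeR adjusted p = 0.225). Without PEF replicate 1, the library that lay apart from the others of its line in a principal component analysis, it was -0.39 and passed the threshold (edgeR adjusted p = 0.0456). Without PEF replicate 2 it was -0.14 (edgeR adjusted p = 0.542), and the other 4 omissions gave -0.17 to -0.35 with no call.

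*gtf2h5* (ENSAMXG00000032201), whose small product stabilizes the complex and stimulates *ercc3*, was expressed at 15.04, 15.2 and 16.1 TPM in PEF replicates 1, 2 and 3, and at 14.4, 15.5 and 14.2 TPM in SEF replicates 1, 2 and 3. The libraries of the lines overlapped. No difference was detected, with a log2 fold change of 0.15 (SE 0.10, 95% interval -0.08 to 0.38, edgeR adjusted p = 0.205), and in none of the 14 alternatives was the gene called.

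In TPM, SEF replicate 3 was the lowest SEF library for 7 of the 7 genes, as it was for 44.6% of all tested genes. In CPM it was the lowest for 5 of the 7. PEF replicate 2 was the lowest PEF library in TPM for 5 of the 7 genes, against 32.8% of all tested genes. Without SEF replicate 3, *cdk7* had a log2 fold change of 1.46, *ccnh* of 0.62 and *mnat1* of 0.32, and the first 2 remained called (edgeR adjusted p = 0.000125 and 0.00260).

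The order of the levels differed between the lines. In PEF, *cdk7* was highest at 41.1 ± 3.40 TPM (SD, n = 3), followed by *ccnh* at 29.6 ± 2.03, *ercc3* at 19.1 ± 1.16, *gtf2h5* at 15.4 ± 0.554, *mnat1* at 9.99 ± 0.336, *gtf2h1* at 8.45 ± 1.87 and *ercc2* at 5.03 ± 0.274 TPM. Neighbors in that order did not overlap between libraries, with the exception of *mnat1* and *gtf2h1*. In SEF, *ercc3* was highest at 23.0 ± 0.540 TPM (SD, n = 3), followed by *ccnh* at 19.6 ± 1.29, *cdk7* at 14.95 ± 2.13, *gtf2h5* at 14.7 ± 0.694, *gtf2h1* at 10.5 ± 1.53, *mnat1* at 7.21 ± 1.27 and *ercc2* at 6.96 ± 1.04 TPM. There, *cdk7* and *gtf2h5* overlapped, as did *mnat1* and *ercc2*. Relative to all listed genes, *cdk7* lay at or above 90.9% in PEF and 79.4% in SEF, and *ercc2* at or above 65.9% in PEF and 68.7% in SEF.

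The balance between subunits was measured as the log2 ratio of the levels of each pair of genes within a library, on the log2(TPM + 0.1) scale, which does not depend on the scaling of libraries. There are 21 pairs of the 7 genes. For 16 of them (76.2%) the ratios of PEF and SEF libraries did not overlap, near the 73.3% of all 138936115 pairs of tested genes. All 12 pairs of a CAK gene with a core gene among the 7 shifted toward the CAK gene in PEF without overlap. The shift ran from 0.41 for *mnat1* over *gtf2h5* to 1.91 for *cdk7* over *ercc2*. The 12 pairs are built from the same 7 genes and are not independent of each other. How often other genes split in this way was not computed. The core subunit genes *gtf2h2*, *gtf2h3* and *gtf2h4* are not in these pairs. Of them, *gtf2h3* rose by 1.21 on the log2 scale, more than *ccnh* (0.66) and *mnat1* (0.46). *gtf2h2* changed by 0.13, and the 2 tested *gtf2h4* genes by -0.45 and 0.08. Of the 6 pairs within the core, 2 did not overlap, *ercc2* over *gtf2h5* (-0.52) and *ercc3* over *gtf2h5* (-0.34). Of the 3 pairs within the CAK, 2 did not overlap, both with *cdk7*. With 3 libraries against 3, the two-sided exact permutation test cannot give a p below 0.1, which was the value for each of the 16 pairs (adjusted over the 21 pairs, 0.131). The other 5 pairs had an exact permutation p of 0.2 to 0.9.

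Within the CAK, the shift lay between the kinase and its partners. The *cdk7* to *ccnh* log2 ratio was 0.42, 0.37 and 0.62 in PEF replicates 1, 2 and 3, against -0.29, -0.33 and -0.56 in SEF replicates 1, 2 and 3. On average, *cdk7* stood at 1.39 times the level of *ccnh* in PEF and at 0.761 times in SEF, so the order of the 2 genes was turned round. *cdk7* stood at 4.08 times the level of *mnat1* in PEF and at 2.07 times in SEF. The *ccnh* to *mnat1* ratio was similar in size, 2.94 in PEF and 2.71 in SEF, with overlapping libraries (difference of log2 ratios 0.11, exact permutation p = 0.7).

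Between the helicases of the core, the balance did not separate the lines. The log2 ratio of *ercc2* to *ercc3* was -1.91, -1.89 and -1.91 in PEF replicates 1, 2 and 3, and -1.56, -1.68 and -1.92 in SEF replicates 1, 2 and 3 (difference -0.18, exact permutation p = 0.4). SEF replicate 3 lay at the PEF values. *cdk7* over *ercc3* averaged 2.14 in PEF and 0.647 in SEF.

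**Figure D2:**
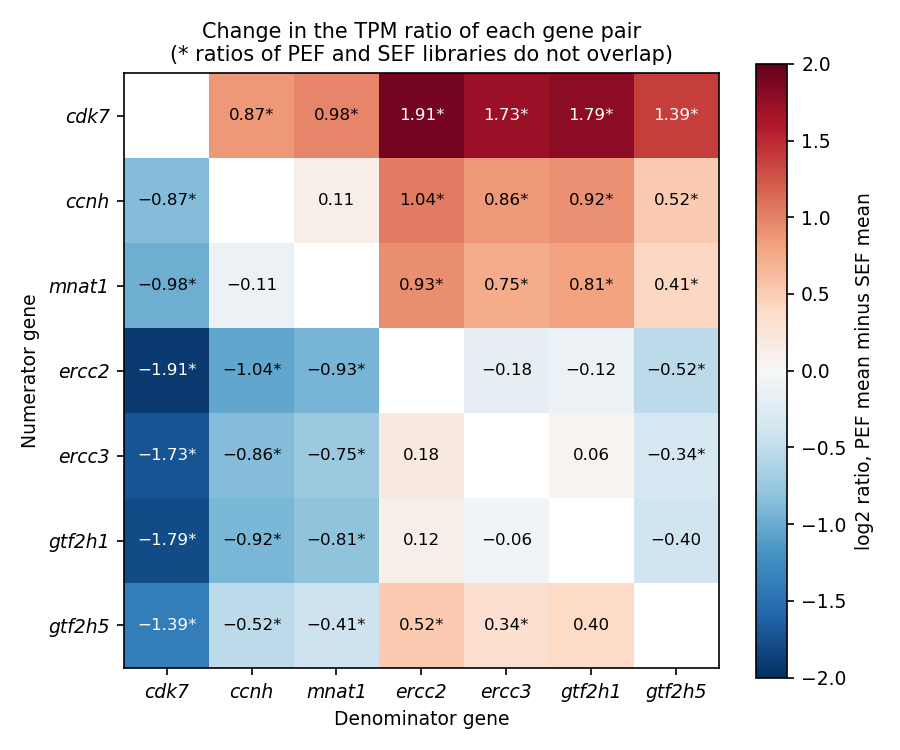
Difference between PEF and SEF in the log2 TPM ratio of each gene in the rows (numerator) to each gene in the columns (denominator), with red for a higher ratio in PEF and an asterisk where the ratios of the 3 PEF and the 3 SEF libraries do not overlap. The row of *cdk7* holds the largest values, 0.87 over *ccnh* to 1.91 over *ercc2*, and the block of core genes holds values of at most 0.52 in size.

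Summed over the 3 genes, the CAK reached 85.0, 75.6 and 81.4 TPM in PEF replicates 1, 2 and 3, against 43.1, 45.0 and 37.1 TPM in SEF replicates 1, 2 and 3. The 4 core genes summed to 51.4, 45.5 and 47.2 TPM in PEF replicates 1, 2 and 3, and to 57.6, 56.7 and 51.3 TPM in SEF replicates 1, 2 and 3, where PEF replicate 1 and SEF replicate 3 met. The CAK thus took 62.7 ± 0.535% of the summed level of the 7 genes in PEF and 43.0 ± 1.16% in SEF (SD, n = 3 each). The share of *cdk7* alone was 31.9 ± 1.57% in PEF and 15.4 ± 1.09% in SEF, while that of *mnat1* was 7.77 ± 0.205% in PEF and 7.41 ± 0.877% in SEF. The highest of the 7 genes exceeded the lowest by 7.63 to 8.88 times in a PEF library and by 2.98 to 3.84 times in a SEF library. These sums are descriptions of chosen genes, with no test, and leave out the core subunit genes *gtf2h2*, *gtf2h3* and *gtf2h4*.

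The other TFIIH subunits of the core split in the same comparison. *gtf2h3* (ENSAMXG00000013629), which encodes a zinc-binding structural subunit, was expressed at 26.2, 22.6 and 24.9 TPM in PEF replicates 1, 2 and 3, against 11.3, 11.6 and 10.9 TPM in SEF replicates 1, 2 and 3. No library overlapped, and the log2 fold change was 1.21 (SE 0.09, edgeR adjusted p = 3.78e-05). *gtf2h2* (ENSAMXG00000004923), whose product regulates the helicase *ercc2*, averaged 8.62 ± 0.611 in PEF and 7.02 ± 0.493 in SEF, in TPM (SD, n = 3 per line), and its log2 fold change on counts was 0.13 (95% interval -0.14 to 0.40, edgeR adjusted p = 0.341). The name *gtf2h4*, the subunit that anchors *ercc3*, is carried by 4 listed genes, between which the counting could have split reads. Of these, 2 had 0 reads in every library, ENSAMXG00000017912 changed by 0.08 on the log2 scale, on 57 to 87 reads (edgeR adjusted p = 0.756), and ENSAMXG00000017868 averaged 7.46 ± 0.235 in PEF and 11.5 ± 2.11 in SEF, in TPM (SD, n = 3 per line). The last fell by 0.45 on the log2 scale (edgeR adjusted p = 0.0284) and was not called without any 1 PEF library, SEF replicate 1 or SEF replicate 2 (edgeR adjusted p = 0.0516 to 0.0851). The core as a whole was therefore not uniformly lower, since *gtf2h3* rose.

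The genes *cdk7*, *ccnh*, *gtf2h2* and *gtf2h3* share a chromosome in the RefSeq assembly AstMex3_surface, to which genes were matched by symbol. Since the sources do not name the build used for counting, no positions are given. The 340 tested genes placed on that chromosome had a median log2 fold change of 0.77, the highest of 25 chromosomes, with 62.1% of them higher and 16.5% lower in PEF. *cdk7* lay 0.83 above that median, at or above 80.6% of the genes of the chromosome, and *gtf2h3* lay 0.44 above it. *ccnh* lay 0.11 below the median, at or above 43.5% of the genes there, and *gtf2h2* lay 0.64 below it. Beside *cdk7*, *setbp1* on one side rose by 3.37 on the log2 scale, on 20 to 431 reads, and *serinc5* on the other by 1.38, while the gene after it, *thbs4a*, fell by 1.73, on 12 to 65 reads (edgeR adjusted p = 0.000297, 0.000294 and 0.00744). Of the tested neighbors of the other 3 genes there, *rasa1a* beside *ccnh*, *erap1b* beside *gtf2h2* and *psmd9* near *gtf2h3* rose. Their log2 fold changes were 1.35, 2.06 and 0.88 (edgeR adjusted p = 3.39e-05, 1.45e-05 and 0.000134). *eif2b1* beside *gtf2h3*, at 0.18, did not pass the threshold (edgeR adjusted p = 0.258), and none of these neighbors fell. The chromosomes of *mnat1*, *ercc3*, *gtf2h1* and *gtf2h5* had medians of -0.05, -0.03, -0.04 and -0.07. That of *ercc2* had -0.22 and that matched to the name *gtf2h4* had -0.27, ranks 23 and 24 of the 25 from the highest. *ercc2* and the *gtf2h4* gene called lower, ENSAMXG00000017868, each lay 0.18 below the median of their chromosome. The other tested *gtf2h4* gene lay 0.35 above it. *mnat1* lay 0.51 above its median. The part of the chromosome in these differences was not tested.

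**Figure D3:**
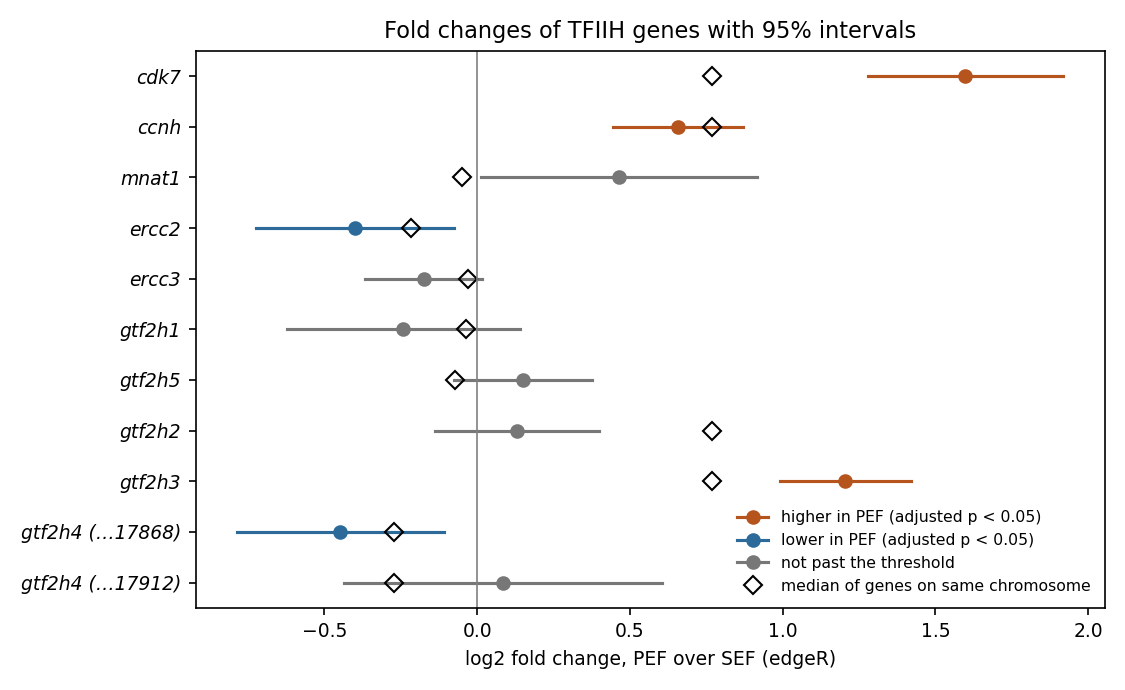
Log2 fold change of each TFIIH gene, PEF over SEF, from edgeR (horizontal axis, circles, 95% intervals as lines), with the median of the tested genes on the same chromosome as open diamonds. The diamonds of *cdk7*, *ccnh*, *gtf2h2* and *gtf2h3* stand at 0.77, with *cdk7* and *gtf2h3* to the right of it at 1.60 and 1.21, *ccnh* at it and *gtf2h2* to the left at 0.13.

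For each gene, the named gene outside the complex with the most similar profile was found by the distance between centered log2 CPM values over the 6 libraries. For *cdk7* this was *tomm5* (distance 0.14 on the log2 scale, log2 fold change 1.65), for *ccnh* it was *sec11a* (distance 0.06) and for *mnat1* it was *ikzf5* (distance 0.12). For *ercc2*, *ercc3*, *gtf2h1* and *gtf2h5* the closest genes were *SLC44A2* (distance 0.07), *cbx3a* (0.03), *slc35b4* (0.09) and *nploc4* (0.09). Most of these matches had near ties. The genes within 0.05 of the smallest distance, the closest included, numbered from 1 for *gtf2h1* to 16 for *ccnh* and 46 for *gtf2h5*.

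The genes that act around TFIIH were described by lists of known members, to be read against the 30.4% higher and 33.1% lower among all tested genes. Of the 17 tested genes of nucleotide excision repair partners, 7 were higher, 2 were lower and 8 did not pass the threshold, with a median log2 fold change of 0.33. The largest rises were those of *ddb2*, which recognizes UV lesions, at 2.42 (edgeR adjusted p = 4.40e-05), and *ercc5*, the nuclease XPG that binds TFIIH, at 1.22 (edgeR adjusted p = 0.000336). *ercc5* averaged 5.72 ± 0.262 in PEF and 2.68 ± 0.469 in SEF, in TPM (SD, n = 3 per line). The genes that fell were *rpa2*, a subunit of the single-strand binding protein, at -1.24 (edgeR adjusted p = 0.00587), and the DNA ligase gene *lig1*, at -0.80 (edgeR adjusted p = 0.0391), whose call was lost without PEF replicate 2, SEF replicate 1 or SEF replicate 2 (edgeR adjusted p = 0.0774 to 0.104). *rpa2* and *lig1* also act in DNA replication. PEF replicate 1 was the lowest library for both, at 4.42 TPM for *rpa2* (6.27 and 8.90 TPM in PEF replicates 2 and 3, and 13.6 to 17.6 TPM in SEF) and at 11.6 TPM for *lig1* (19.4 and 24.03 TPM in PEF replicates 2 and 3, and 29.7 to 39.2 TPM in SEF). Without it, *rpa2* was at -0.98 and *lig1* at -0.52, both called (edgeR adjusted p = 0.00309 and 0.0235).

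Of the other kinases and cyclins of transcription, 9 of 14 tested genes were higher in PEF, 0 were lower and 5 did not pass the threshold, with a median log2 fold change of 0.54. At an unadjusted p under 0.05, the main edgeR analysis and DESeq2 also gave 0 lower, and edgeR without PEF replicate 1 gave 1. The number higher ran from 6 to 9 over the 14 alternatives. The largest rises were those of *ccnl1a*, a cyclin linked to splicing, at 1.55 (edgeR adjusted p = 2.07e-05), and *ccnk*, the cyclin of CDK12 and CDK13, at 1.01 (edgeR adjusted p = 0.000490). Of the 4 kinases of the cell cycle that CDK7 is known to activate, *cdk2* at -0.99 (edgeR adjusted p = 0.00381) and *cdk4* at -0.48 (edgeR adjusted p = 0.00432) were lower in PEF, while *cdk1* at -0.64 and *cdk6* at -0.38 did not pass the threshold (edgeR adjusted p = 0.248 and 0.284). *cdk1* was expressed at 11.8, 28.8 and 47.7 TPM in PEF replicates 1, 2 and 3, against 50.9, 51.2 and 44.7 TPM in SEF replicates 1, 2 and 3. PEF replicate 1, which lay apart in the principal component analysis, was the lowest, and PEF replicate 3 lay within the SEF range. *cdk2* averaged 17.0 ± 3.48 in PEF and 37.8 ± 5.85 in SEF, in TPM (SD, n = 3 per line).

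The other general transcription factors, which apart from the elongation factor gene *tcea1* assemble with TFIIH at promoters, hardly differed. Of 8 tested genes, 1 was lower, *gtf2a1* of TFIIA at -0.58 (edgeR adjusted p = 0.00170), and 7 did not pass the threshold, with a median log2 fold change of 0.02. Of 15 tested genes for TFIID subunits, 6 were higher, led by a *taf10* gene (ENSAMXG00000000178) at 1.84 and *taf13* at 0.99, and 3 were lower, led by *taf7* at -0.66 (edgeR adjusted p = 0.000152, 8.91e-05 and 0.00171). The name *taf10* is carried by 2 listed genes. The other, ENSAMXG00000039831, was called higher at 0.33 (edgeR adjusted p = 0.0173), with means of 26.2 TPM in PEF and 22.8 TPM in SEF. ENSAMXG00000000178 averaged 18.6 TPM in PEF and 3.90 TPM in SEF. Over the 14 alternatives the number higher ran from 4 to 7 and the number lower from 1 to 3, with 1 lower without PEF replicate 1, without PEF replicate 2, with no filter on low counts or with a replicate block. The fall of *taf9*, at -0.36, passed the threshold at an edgeR adjusted p of 0.0397 and was lost without any 1 library, with the exception of PEF replicate 3. Of 11 tested RNA polymerase II subunits, 7 were higher and 3 lower, and the number higher was 2 to 3 on log2 TPM with limma, 3 with a replicate block and 3 without SEF replicate 2. The extremes were *polr2gl* at 1.48 and *POLR2E* at -1.11 (edgeR adjusted p = 6.19e-05 and 0.000468). *polr2j* rose by 0.47 and *polr2f* fell by 0.38 on the log2 scale (edgeR adjusted p = 0.00808 and 0.0142), the second not called without PEF replicate 2 (0.0681). The cluster that XPD carries comes from cytosolic iron-sulfur assembly. The 7 tested genes of that list gave 0 calls with edgeR, DESeq2 and limma, also at an unadjusted p under 0.05. Their log2 fold changes ran from -0.04 for *mms19* to 0.17 for *ciapin1* (edgeR adjusted p = 0.731 and 0.345).

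**Figure D4:**
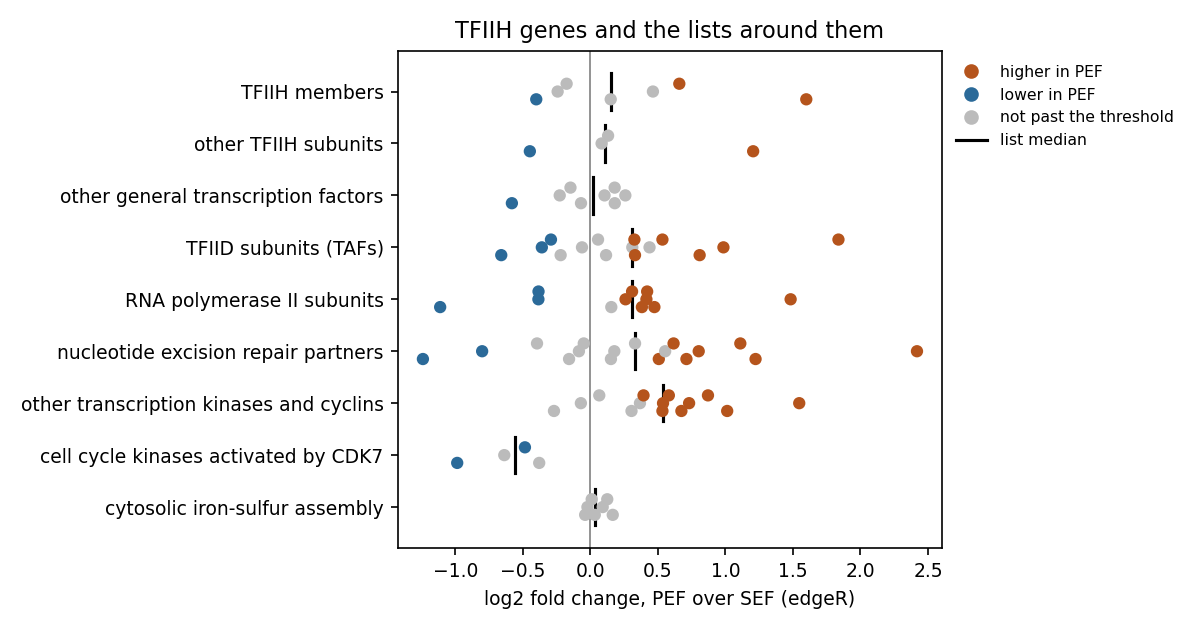
Log2 fold change, PEF over SEF, of each tested gene (points) in the TFIIH members and 8 lists around them, with orange for higher and blue for lower in PEF at an edgeR adjusted p under 0.05, gray for genes not past the threshold, and black bars for list medians. The median of the other transcription kinases and cyclins lies at 0.54, that of the cell cycle kinases at -0.56 and that of iron-sulfur assembly at 0.03.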

How the data were processed

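The authors deposited read counts per gene, not normalized, and TPM values from RSEM, given to 2 decimals. The submitters' processing notes name STAR 2.7.3a and RSEM. Genome, annotation and strand setting for these libraries are not given in the sources used here. The 4 summary rows of reads that the counting assigned to no gene (38.8% to 41.1% of a library) were left out. Counts were analysed in R 4.3.3 with edgeR 4.0.16 (TMM, filterByExpr, quasi-likelihood test, Benjamini-Hochberg adjustment over 16670 genes). Standard errors came from the F statistic. Pair ratios used log2(TPM + 0.1) and exact permutation tests in SciPy 1.17.1. Chromosomes came from a symbol match of 11105 tested genes to RefSeq AstMex3_surface. Alternatives were DESeq2 1.42.0, upper-quartile scaling, other filters (none, or 10 reads in every library), limma 3.58.1 on log2 TPM (pseudocount 1 or 0.1, or at least 1 TPM in 3 libraries), a replicate block and leaving out each library. The tests were checked on simulated counts with 200 of 16670 genes changed, equally up and down. In these data 63.5% of tested genes were called, and a simulation with that many changed genes was not run. Genes named outside the complex are the 2 largest rises and 2 largest falls among called genes of each list, the closest profiles, and, chosen after their values were seen, uncalled members of short lists, marker genes and chromosome neighbors. The members and lists were chosen with earlier results of these data known.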

Additional observations from a re-analysis of the deposited data

How the results depend on the processing

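The rises of *cdk7* and *ccnh* held in all 14 alternatives, with log2 fold changes of 1.41 to 1.65 and 0.57 to 0.68 and adjusted p-values of at most 0.000982 and 0.00535. The number of TFIIH genes called was 5 (3 higher, 2 lower) on log2 TPM in each of the 3 limma settings, against 3 (2 higher, 1 lower) in the main analysis. The number called as lower was 2 with DESeq2 and with at least 10 reads in every library, 0 with no filter on low counts, and 0 to 1 when each library was left out. Over those omissions the total ran from 2 to 3. The number over all genes ran from 7700, with at least 10 reads in every library, to 12019, with limma on log2(TPM + 0.1). It was 11701 with limma on log2(TPM + 1), 9079 with at least 1 TPM as well, and 10579 in the main analysis. DESeq2 was run on the same 16670 genes as the main analysis and called 10789 of them, 4919 higher and 5870 lower. It called 4 of the 7 TFIIH genes. The other filters, the limma settings and the omission of a library change how many genes are tested. For those settings the numbers are therefore not shares, and the counts of TFIIH genes have no background share beside them. The less expressed *gtf2h4* gene (ENSAMXG00000017912) changed sign on omission of a library, with log2 fold changes from -0.035 to 0.20 (-0.025 without SEF replicate 3). Among the 7 TFIIH genes, *mnat1* had the fewest reads, 126 to 216.

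With a replicate block, 9735 of the 16670 tested genes were called, 2 of the 7 TFIIH genes among them, 2 higher and 0 lower. In that setting 17 of 21 pair ratios differed in the same direction in all same-numbered pairs of libraries. The same share over all pairs of tested genes was not computed, so that number has no background beside it. For the pairs, the other alternatives were log2(TPM + 1), log2 CPM from the counts and leaving out each library. The number of pairs whose ratios did not overlap was 16 to 18 over these. Leaving out a library cannot lower that number, so only the log2(TPM + 1) and log2 CPM settings could have done so. Same-numbered libraries did not deviate together (correlations -0.04, 0.07 and -0.13), so the numbers were not taken as a pairing.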
